A study of Mus musculus with 18 samples.

Results

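A set of 10 genes of type 2 immunity, matched by gene symbol in the count tables, was followed through RNA-seq of mouse pancreatic islets carrying a MafA variant. They are the cytokine gene Il4, the receptor genes Il4ra and Il13ra2, the secreted effectors Rnase2a, Chil3, Chil4 and Retnla, the chemokines Ccl17 and Ccl24, and the metalloprotease gene Adamdec1. All 10 were found among the 53801 mouse genes listed, and all 10 passed the filter on low counts that left 18364 genes for testing. The genes were chosen by their measured counts, near absent from wild-type islets and present in islets with the variant, so the values that compare the genotypes are descriptions and carry no test. The choice did not hold for every gene. Il4ra was plainly expressed in wild-type islets, at 8.36 ± 1.38 CPM in males (counts scaled to 1 M library counts; SD, n = 4), and Chil3 stayed below 1 CPM in every library.

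The mice were 5 weeks old, ate normal chow, and carried either wild-type MafA (WT) or 1 copy of the S64F allele (S64F/+), an amino acid substitution in the beta-cell transcription factor MafA that is linked to a monogenic form of diabetes. Males gave 4 WT and 4 S64F/+ libraries, and females 5 of each genotype. Mouse strain, the way the allele was made and whether each library came from 1 animal or a pool are not stated in any source used here, so every spread below is the spread between libraries. The samples were whole islets, which hold endocrine, endothelial, stromal and resident immune cells together. In these mixtures more cells of a type and more RNA per cell cannot be told apart.

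Interleukin-4 and interleukin-13 are the signature cytokines of type 2 immunity, the response mounted to worms, allergens and tissue injury. Both signal through receptors that contain the Il4ra chain and activate the transcription factor STAT6. In macrophages this leads to alternative activation, a state known for resistin-like, chitinase-like and chemokine genes such as Retnla, Chil3, Chil4, Ccl17 and Ccl24, and the decoy receptor Il13ra2 is a known target of the same pathway in stromal and epithelial cells.

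Because STAT6 is the pathway's transcription factor, the DNA before the transcription start was searched for the paired half-sites that STAT proteins bind. RefSeq windows of 250 bases before the start (GRCm38.p6) were available for 8 of the 10 genes. Of these, 5 held a paired half-site and are shown here 5′ to 3′ on the strand of the gene, without any base that the gene annotation counts as transcribed. Capitals mark TTCNNNNGAA, the spacing STAT6 prefers, and TTCNNNGAA, the shorter spacing used by STAT proteins in general. The windows lie at chr16:48842359-48842550 (plus strand), chr8:94810203-94810452 (plus strand), chr11:53618670-53618915 (minus strand), chr3:106167565-106167814 (minus strand) and chr3:106219508-106219729 (minus strand).
Retnla: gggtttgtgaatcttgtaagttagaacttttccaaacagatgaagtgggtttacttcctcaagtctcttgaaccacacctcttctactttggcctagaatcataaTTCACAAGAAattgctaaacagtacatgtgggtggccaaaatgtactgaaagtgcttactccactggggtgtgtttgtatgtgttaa
Ccl17: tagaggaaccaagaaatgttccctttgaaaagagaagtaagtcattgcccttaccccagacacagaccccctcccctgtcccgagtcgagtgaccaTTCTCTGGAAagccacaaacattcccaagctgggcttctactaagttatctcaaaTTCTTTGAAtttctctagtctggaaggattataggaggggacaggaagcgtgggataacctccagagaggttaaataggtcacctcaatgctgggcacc
Il4: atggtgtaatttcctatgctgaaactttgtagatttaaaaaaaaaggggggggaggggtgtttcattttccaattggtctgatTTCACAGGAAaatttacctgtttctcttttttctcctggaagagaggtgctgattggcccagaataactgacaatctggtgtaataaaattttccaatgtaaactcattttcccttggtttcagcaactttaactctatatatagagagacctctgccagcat
Chil3: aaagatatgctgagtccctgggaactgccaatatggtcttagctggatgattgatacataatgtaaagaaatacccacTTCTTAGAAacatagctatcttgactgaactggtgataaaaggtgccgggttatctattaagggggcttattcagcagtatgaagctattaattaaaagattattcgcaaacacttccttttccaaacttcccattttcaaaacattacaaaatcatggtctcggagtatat
Chil4: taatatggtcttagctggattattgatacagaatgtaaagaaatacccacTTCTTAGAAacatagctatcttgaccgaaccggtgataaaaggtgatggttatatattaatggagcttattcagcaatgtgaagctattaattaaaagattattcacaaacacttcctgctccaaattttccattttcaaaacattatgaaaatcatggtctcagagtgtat

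TTCNNNNGAA was found in Retnla, Ccl17 and Il4, and 5.85% of all 32851 promoter windows of that length hold it. TTCNNNGAA was found in Chil3, Chil4 and Ccl17, against 7.02% of all windows. Both strings are their own reverse complement, so a match holds on both strands. The match in Retnla, TTCACAAGAA, began 145 bases before the RefSeq start, and that in Ccl17, TTCTCTGGAA, began 154 bases before it. Chil3 and Chil4, neighbouring genes on chromosome 3, carry the same 9 letters, TTCTTAGAA. Their longer RefSeq promoter sequences, which include bases after the start that are not shown, were identical at 251 of 273 aligned positions (91.9%). The half-site TGCTGAC, which MAF proteins recognise, was searched on both strands and was found in Retnla alone, 42 to 48 bases before the RefSeq start and outside the stretch shown, against 3.81% of all windows. These matches describe letters only, and no binding was measured.

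Library totals ran from 19.3 to 108.7 M counts with a median of 42.4 M. The floor used for genes at 0, 3 counts summed over a group, corresponded to 0.0258 CPM in male WT, 0.0156 in male S64F/+, 0.0104 in female WT and 0.015 in female S64F/+ islets. Ins2, the insulin gene of beta cells, stood at 163649.6 ± 21987 CPM in male WT and 91584 ± 4702 CPM in male S64F/+ islets (SD, n = 4 each). Mafa transcript fell with the allele (197 ± 52.2 against 905 ± 80.8 CPM in males, edgeR adjusted p 1.77e-06), but a gene count sums both alleles and does not check the genotype. Of the 18 libraries, 3 stood apart by transcripts known from the intestine (Clca1, Fcgbp, Tff3, Jchain and Muc2). These summed to 225 CPM in male WT 2, 132 CPM in male S64F/+ 3 and 32.2 CPM in female S64F/+ 1, and to between 2.2 and 6.91 CPM in the other 15. Jchain is not an epithelial gene and is also on the list of B cell markers. It stood at 12.8 CPM in male WT 2 and 11.3 CPM in male S64F/+ 3, but at 0.043 CPM in female S64F/+ 1. Ratios of the 10 genes without these 3 libraries are given beside the main ones or with the order of the libraries.

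The cytokine gene Il4 (ENSMUSG00000000869, chromosome 11, 53602982 to 53618669, minus strand, GRCm38) had no count in any of the 4 male WT libraries. The 4 male S64F/+ libraries held 192, 101, 114 and 146 counts, or 2.74, 3.12, 2.31 and 3.57 CPM. All 4 were therefore well above WT and close to each other, within a 1.54-fold range. Against the floor, Il4 was at least 111-fold higher in male S64F/+ islets, and at least 76.0-fold higher without the male libraries with intestinal transcripts. In female WT islets 2 of the 5 libraries held 5 and 7 counts and the other 3 none. In female S64F/+ islets Il4 stood at 44, 25, 29, 73 and 136 counts, or 0.946, 1.1, 1.2, 1.4 and 2.49 CPM, every library above every female WT library. The pooled counts gave a 36.8-fold ratio in females (exact 95% interval 20.8 to 72.1, counting error only, as for all intervals here). It rested on 12 WT counts and was 75.5 without female WT 4, which held 7 of them. The highest female S64F/+ library overlapped the lowest male one, male S64F/+ 3, which holds intestinal transcripts. Without such libraries the sexes were apart (3.14 ± 0.415 against 1.55 ± 0.639 CPM). With all libraries the male to female ratio of 1.87 (1.62 to 2.15) was the smallest among the genes near absent from WT. The count sums 4 annotated transcripts of Il4, a noncoding one among them, and cannot tell them apart.

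The other type 2 cytokines next to Il4 on chromosome 11 were not seen to accompany it. Il13 had 1 count in all 18 libraries together, in a male WT library, and Il5 had 3 and 0 counts over the WT and S64F/+ groups of males and 6 and 1 over those of females. With 0 counts in male S64F/+ islets, both genes were below the floor of 3 counts over that group (0.0156 CPM), which is no upper limit for a single library. Il33, an alarmin that triggers type 2 responses, was detected at 0.465 ± 0.236 CPM in male WT and 0.813 ± 0.284 CPM in male S64F/+ islets and did not pass the test (a log2 change of 0.77 ± 0.44, edgeR quasi-likelihood test, adjusted p 0.211). Of 12 listed type 2 cytokines and alarmins, 3 had enough counts to be tested (Il33, Areg and Tslp). By edgeR 0 of them passed in either sex, 1 in males and 0 in females had an unadjusted p under 0.05, and DESeq2 called 0.

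Among 9 tested neighbours of Il4 on chromosome 11, 3 rose in males and 2 in females, where 15.3% and 10.2% of all genes tested were higher. Shroom1, which encodes an actin-binding protein, rose from 1.68 ± 0.107 to 4.64 ± 1.51 CPM (a log2 change of 1.46 ± 0.20, edgeR adjusted p 3.55e-05). Sept8, a septin gene, rose from 42.3 ± 3.65 to 58.1 ± 6.51 CPM (0.46 ± 0.10, edgeR adjusted p 0.00218). Slc22a4, a cation transporter gene, rose by 0.95 ± 0.30 (edgeR adjusted p 0.0238). This call was lost in 3 of 18 fits that left out 1 library, at most to 0.0913 without male S64F/+ 3, and lost without the 3 libraries with intestinal transcripts (edgeR adjusted p 0.0875). In females Shroom1 rose by 0.62 ± 0.18 (edgeR adjusted p 0.0177, lost in 1 of 18 such fits, 0.0508 without female WT 1). Uqcrq, a subunit of the respiratory chain, rose there by 0.59 ± 0.18 (edgeR adjusted p 0.0246, lost in 6 of them, at most to 0.068 without female S64F/+ 3).

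The receptor genes split into an expressed and a silent one. Il4ra (ENSMUSG00000030748, chromosome 7, 125552120 to 125579474, plus strand), the signalling chain shared by the interleukin-4 and interleukin-13 receptors, had between 135 and 433 counts in every male WT library. It stood at 7.46, 10.4, 7.78 and 7.78 CPM in male WT and at 13.7, 14.8, 19.6 and 14.5 CPM in male S64F/+ libraries, so the groups were apart, with a pooled ratio of 1.8 (1.67 to 1.93). In females it ran from 9.06 to 11.5 CPM in WT and from 9.91 to 13.6 CPM in S64F/+ libraries, which overlap, with a pooled ratio of 1.15 (1.09 to 1.22). Antisense gene Gm44876 overlaps Il4ra and shares 7.49% of its 100-base words, counted on either strand. The strand setting is not stated, so whether reads of the pair were told apart where they overlap is not known.

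Il13ra2 (ENSMUSG00000031289, chromosome X, 147383476 to 147429192, minus strand), the decoy receptor that binds interleukin-13 without passing on the signal, had no count in male WT islets. Its counts in male S64F/+ libraries were 203, 212, 523 and 290, or 2.89, 6.54, 10.6 and 7.09 CPM, which is at least 246-fold higher against the floor and at least 122-fold higher without the libraries with intestinal transcripts. Female S64F/+ libraries held only 10, 5, 3, 6 and 3 counts, or 0.0549 to 0.22 CPM, against 2 counts in 1 of the 5 female WT libraries, a ratio of 19.4 with a wide interval (4.89 to 169). The male S64F/+ level was 47.2-fold the female one (32.3 to 71.9), the widest gap between the sexes among the 10 genes. The mean in female S64F/+ islets came to 2.15% of the male mean for Il13ra2, to 48.7% for Il4 and to 76.7% for Il4ra.

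Beyond the members, 24 other genes of type 2 receptors and signalling were tested, of which 12 rose and 1 fell in males, where 15.3% of all genes tested were higher and 12.3% lower (27.6% called in all). The count of higher genes ran from 8 to 12 over the 18 fits that left out 1 library. Csf2rb2, a beta chain of the interleukin-3 receptor only, and Csf2rb, the beta chain shared by the receptors for interleukin-3, interleukin-5 and GM-CSF, rose most clearly. Csf2rb2 rose from 0.611 ± 0.0957 to 13.1 ± 5.08 CPM (a log2 change of 4.43 ± 0.33, edgeR adjusted p 5.01e-08) and Csf2rb from 0.672 ± 0.352 to 10.8 ± 2.8 CPM (3.95 ± 0.42, edgeR adjusted p 2.53e-06). The kinase gene Jak3 and Stat6 itself rose by less, from 13.3 ± 3.08 to 22.1 ± 1.4 CPM and from 33.3 ± 4.49 to 44.8 ± 2.45 CPM (edgeR adjusted p 0.000578 and 0.00102). Jak1 fell by 0.37 ± 0.12 (edgeR adjusted p 0.0258), a call lost in 5 of 18 fits that left out 1 library, at most to 0.066 without male S64F/+ 3, and lost with library-size scaling (-0.15, adjusted p 0.503).

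In females 1 of these 24 genes passed as higher, Il10ra, the interleukin-10 receptor chain (0.59 ± 0.20, edgeR adjusted p 0.0458, lost in 14 of 18 fits that left out 1 library, at most to 0.0959 without female WT 1). Irs1 and Jak1 fell, where 10.2% of all genes were higher and 11.0% lower (21.2% called in all). The female Jak1 call (edgeR adjusted p 0.0145) was lost with female libraries alone (-0.38, adjusted p 0.062). Irs1, an adaptor of interleukin-4 and insulin receptors, fell from 22.2 ± 4.22 to 13.6 ± 2.76 CPM (-0.71 ± 0.13, edgeR adjusted p 0.000882). The count of 1 higher gene was 0 with same-numbered libraries of each sex as a block and 0 without the libraries with intestinal transcripts. It was 0 to 3 over the 18 fits that left out 1 library. The genotype effect differed between the sexes by the interaction test for Csf2rb2 (3.74 ± 0.42, edgeR adjusted p 0.000634), Csf2rb (3.09 ± 0.52, adjusted p 0.00811), Jak3 (1.0 ± 0.18, adjusted p 0.00942) and Stat6 (0.46 ± 0.11, adjusted p 0.0308), against 4.47% of all genes. The Stat6 call was lost in 9 of 18 fits that left out 1 library, at most to 0.0806 without male WT 4. The median log2 fold change of the list was 0.29 in males and -0.04 in females, against -0.03 and 0.02 over all genes. The male median was 0.49 without the libraries with intestinal transcripts and 0.51 with library-size scaling, under which the median of all genes was 0.19.

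Of the effector genes, Retnla (ENSMUSG00000061100, chromosome 16, 48842551 to 48844461, plus strand), a resistin-like secreted protein that is a standard mark of alternatively activated macrophages, reached the highest levels. Male WT libraries held 0, 6, 8 and 0 counts, and male S64F/+ libraries 1151, 774, 2131 and 1145, or 16.4, 23.9, 43.2 and 28.0 CPM. The groups were far apart, with a pooled ratio of 224 (133 to 409), and of 199 (101 to 462) without the libraries with intestinal transcripts. Female WT libraries each had 1 to 6 counts, and female S64F/+ libraries 218, 50, 24, 111 and 93, or 4.69, 2.2, 0.997, 2.13 and 1.7 CPM. The groups were apart in females too, with a ratio of 39.7 (24.9 to 67.5), and of 29.0 without the library with intestinal transcripts, but the mean of 2.34 ± 1.4 CPM was 8.42% of that in male S64F/+ islets.

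Rnase2a (ENSMUSG00000047222, chromosome 14, 51255262 to 51256112, minus strand), a secreted ribonuclease of the eosinophil-associated family, went from no count in male WT islets to 258, 164, 399 and 153 counts, or 3.68, 5.06, 8.08 and 3.74 CPM. This was at least 196-fold higher, and at least 99.6-fold higher without the libraries with intestinal transcripts. Female S64F/+ libraries held 12, 3, 1, 45 and 9 counts, or 0.258, 0.132, 0.0415, 0.865 and 0.165 CPM, against 2, 0, 0, 1 and 0 in female WT libraries, a ratio of 33.6 (11.0 to 167). Of the 70 female S64F/+ counts 45 were in library 4, and the ratio was 16.2 without it and 61.9 without female WT 1. The female S64F/+ values were spread 20.8-fold between the lowest and the highest library, and all lay below the lowest male S64F/+ library.

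The paired genes Chil3 and Chil4, which encode chitinase-like proteins secreted by macrophages and epithelia, behaved unequally. Chil4 (ENSMUSG00000063779, chromosome 3, 106201490 to 106219507, minus strand) had no count in any of the 9 WT libraries. Male S64F/+ libraries held 34, 204, 514 and 71 counts, or 0.485, 6.3, 10.4 and 1.73 CPM, a 21.5-fold spread within the group, and the level was at least 165-fold higher than in WT, or at least 53.5-fold without the libraries with intestinal transcripts. In female S64F/+ islets all 90 counts came from 1 library, number 4, at 1.73 CPM, which was also the female library with the most Rnase2a. Chil3 (ENSMUSG00000040809, chromosome 3, 106147554 to 106167564, minus strand) had 4, 7, 17 and 18 counts in male S64F/+ libraries, or 0.057 to 0.44 CPM, against 4 counts in male WT 3 and none in the other 3 male WT libraries. These groups overlap. The pooled ratio was 6.92 (2.53 to 26.5), and 3.77 (1.32 to 14.7) without the libraries with intestinal transcripts. In female S64F/+ islets all 11 Chil3 counts came from library 1, one of those with intestinal transcripts, and without it the other 4 had none. The genes share 4.93% of the 100-base words of Chil3 with Chil4 and a pseudogene, and reads from those stretches cannot be assigned to one of them.

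The chemokine Ccl17 (ENSMUSG00000031780, chromosome 8, 94810453 to 94812036, plus strand), which attracts type 2 T helper cells through the receptor CCR4, had no count in male WT islets and 41, 9, 120 and 125 counts in male S64F/+ libraries, or 0.585, 0.278, 2.43 and 3.05 CPM. It was at least 59.2-fold higher, and at least 30.3-fold without the libraries with intestinal transcripts. Female S64F/+ libraries held 3, 28, 12, 4 and 1 counts, from 0.0183 to 1.23 CPM, and overlapped the female WT libraries, in which 2 of 5 had 1 count each. Ccl24 (ENSMUSG00000004814, chromosome 5, 135569937 to 135573049, minus strand), eotaxin-2, an attractant of eosinophils, had 48, 15, 51 and 45 counts in male S64F/+ libraries, or 0.684, 0.463, 1.03 and 1.1 CPM, against 0, 9, 0 and 1 in male WT. The pooled ratio was 9.57 (5.07 to 20.4), but 9 of the 10 WT counts came from the WT library with intestinal transcripts, and without the male libraries that hold them the ratio was 56.1 (9.86 to 2236). Female S64F/+ libraries held 12, 4, 4, 8 and 5 Ccl24 counts against 2 counts over all female WT libraries, and the groups were apart.

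Adamdec1 (ENSMUSG00000022057, chromosome 14, 68563380 to 68582095, minus strand), a secreted metalloprotease gene known from intestinal macrophages and fibroblasts, had a male ratio that moved with the libraries that hold intestinal transcripts. Male WT libraries held 0, 71, 0 and 0 counts, and the 71, or 1.71 CPM, stood in male WT 2, the library with the most intestinal transcripts. Male S64F/+ libraries held 234, 158, 342 and 171 counts, or 3.34, 4.88, 6.93 and 4.18 CPM, all above that library. The pooled ratio was 7.68 (6.02 to 9.92) over all male libraries and at least 97.5 without the 2 with intestinal transcripts. Female S64F/+ libraries held 42, 26, 24, 86 and 113 counts, or 0.903, 1.15, 0.997, 1.65 and 2.07 CPM, against 7 counts over all female WT libraries, a ratio of 59.9 (28.7 to 150). Here the library with intestinal transcripts, number 1, was the lowest of the 5. The part of intestinal RNA in the S64F/+ levels was not tested.

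**Figure D1:**
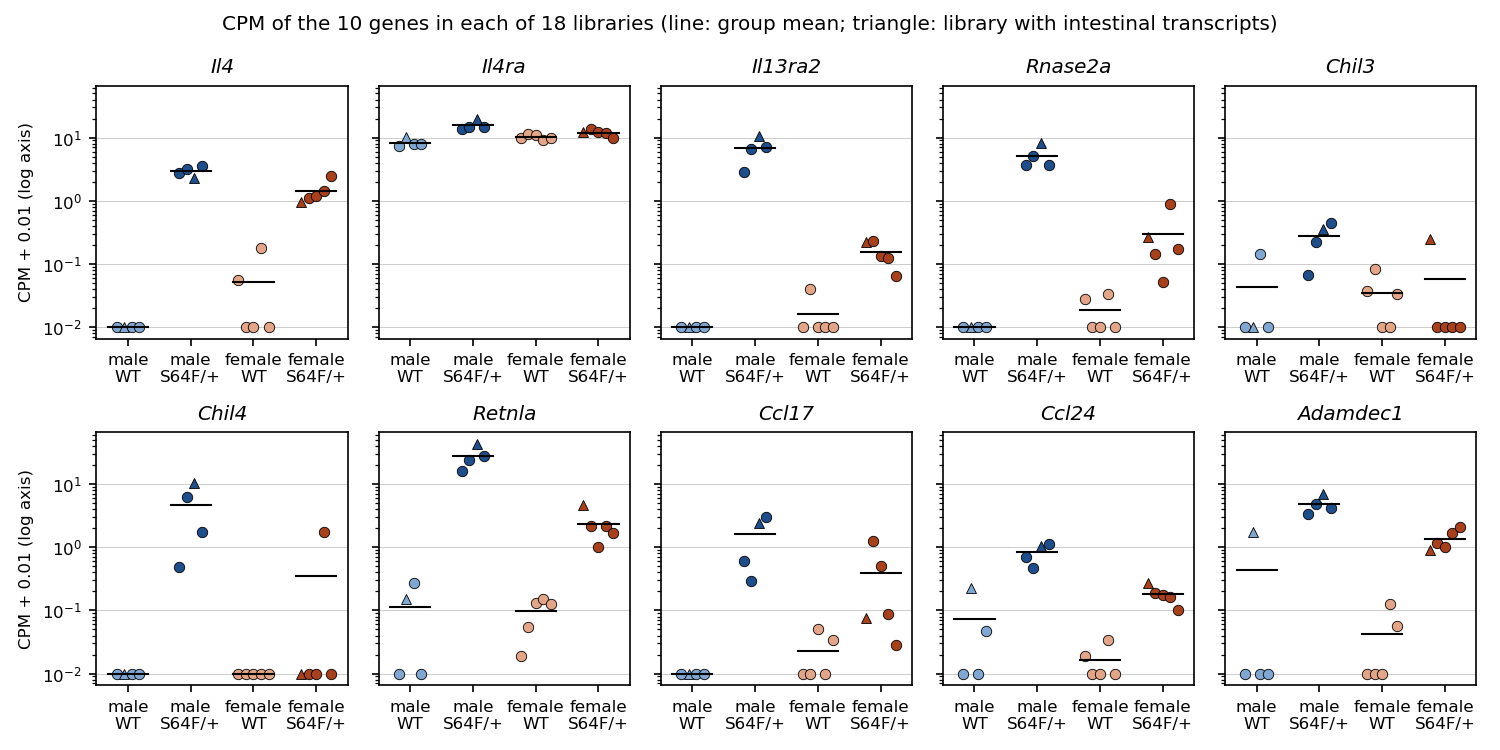
Each panel shows 1 gene, with CPM plus 0.01 on a log axis for every library of the 4 groups, a line at the group mean, and triangles for the 3 libraries with intestinal transcripts; points at 0.01 are libraries without a count. Male S64F/+ libraries lie above all male WT libraries for every gene but Chil3, Il4ra is the only gene well above the axis foot in all WT libraries, and Chil4 has a single female library above 0.

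**Figure D2:**
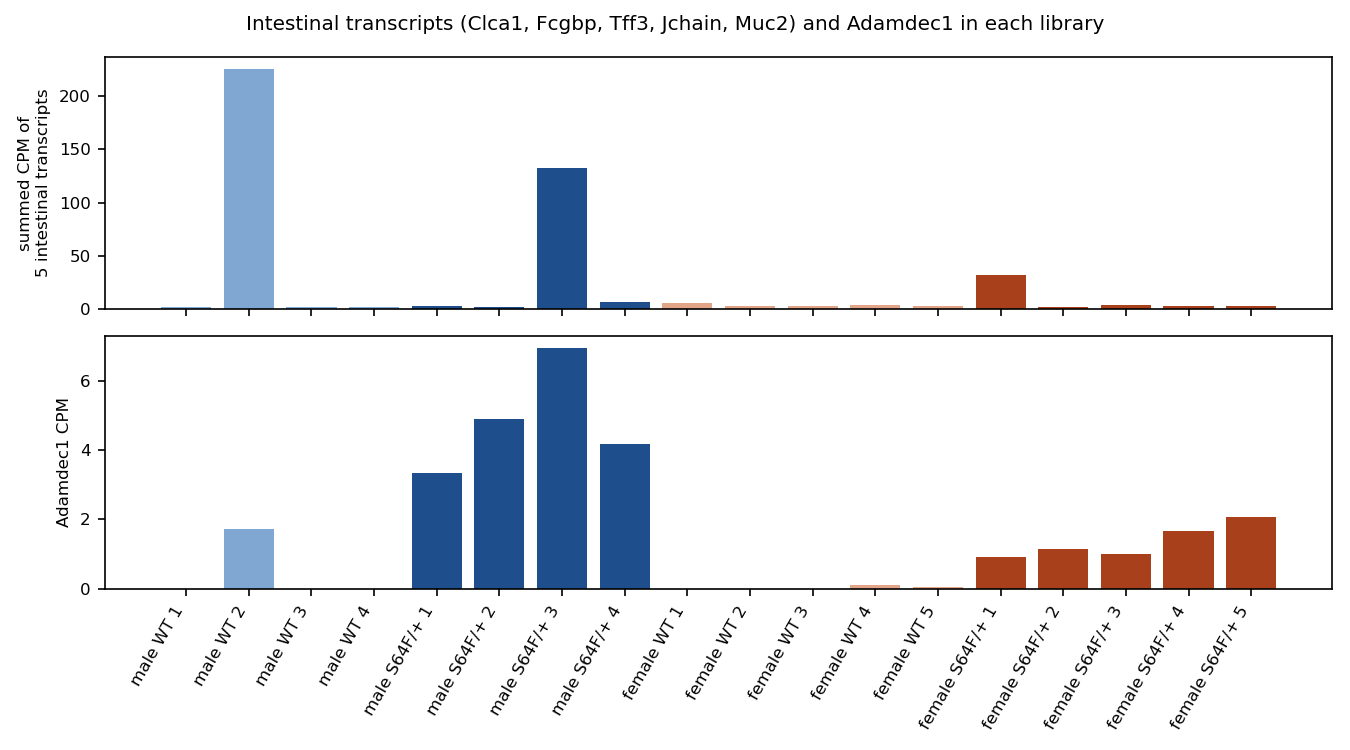
Bars show, for each of the 18 libraries, the summed CPM of Clca1, Fcgbp, Tff3, Jchain and Muc2 (top) and the CPM of Adamdec1 (bottom), both axes starting at 0. Male WT 2 has 225 CPM of intestinal transcripts and is the only male WT library with Adamdec1, while male S64F/+ 1, 2 and 4 have Adamdec1 with 2.35 to 6.91 CPM of intestinal transcripts.

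Over the libraries, 9 of the 10 genes had every male S64F/+ library above every male WT library, a pattern held by 17.8% of all genes tested. In females 6 of 10 did so (Il4, Il13ra2, Rnase2a, Retnla, Ccl24 and Adamdec1), against 5.28% of all genes. Since the genes were chosen for this contrast, nothing is read from these shares. Every male S64F/+ library lay above every female S64F/+ library for 6 genes (Il4ra, Il13ra2, Rnase2a, Retnla, Ccl24 and Adamdec1), against 7.91% of all genes. The choice of the genes used the male S64F/+ values, which favours genes high in these libraries, so nothing is read from this share either. Complete silence in WT followed by clear expression was seen for few genes. In all, 7 genes in the tables had 0 counts in all male WT libraries and a mean of at least 1 CPM in male S64F/+ islets, out of 26894 at 0 in male WT. Il4, Il13ra2, Rnase2a, Chil4 and Ccl17 are 5 of them, and the others are the immunoglobulin variable genes Ighv14-2 and Igkv4-55. The 10 genes were chosen by these same values, so nothing is read from how many of the 7 are among them. No gene met the same description in females.

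The pooled ratios rest on few WT counts. Leaving out 1 library moved the ratio of S64F/+ over WT by more than 1.5 times for 9 of the 10 genes in males and 9 of 10 in females, Il4ra being the exception in both. In males the lower bounds of Il4, Il13ra2, Rnase2a and Ccl17 were lowest without male WT 2, the deepest WT library, at 71.2, 158, 125 and 38.0. The bound of Chil4 ran from 83.4 without male S64F/+ 3 to 249 without male S64F/+ 1, and the ratio of Retnla from 173 without male WT 4 to 387 without male WT 3. The male Chil3 ratio ran from 4.44 without male WT 2 to 9.94 without male S64F/+ 1. Without male WT 2 alone Ccl24 was at 61.5 and Adamdec1 at least at 117. In females the ratio was 25.8 without female WT 1 for Retnla, 36.8 without female WT 1 and 179 without female WT 4 for Adamdec1, 40.6 without female WT 4 for Ccl24, at least 9.91 without female WT 2 for Il13ra2, and from 16.2 without female S64F/+ 2 to 63.3 without female WT 3 for Ccl17. The bound of female Chil4 was 26.5 without female WT 1. Without female S64F/+ 1, which holds intestinal transcripts, the female ratios were 41.1 for Il4, 16.0 for Il13ra2, 36.3 for Rnase2a, 42.2 for Ccl17, 19.7 for Ccl24 and 66.8 for Adamdec1.

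The 10 genes did not order the male S64F/+ libraries alike. Library 3 was the highest for Il4ra, Il13ra2, Rnase2a, Chil4, Retnla and Adamdec1 but the lowest for Il4, and library 4 was the highest for Il4, Chil3, Ccl17 and Ccl24. Library 3 is also the one of this group with intestinal transcripts. Without it and male WT 2, the 9 genes that were apart in males remained apart.

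Levels between genes can be compared only per length, for which the deposited FPKM values (fragments per kilobase per M) were used. In male S64F/+ islets Retnla led with 51.4 ± 20.4 FPKM (SD, n = 4), and its lowest library (31.2) was above the highest library of any other of the 10 genes. Rnase2a followed with 8.24 ± 3.29, and then, with overlapping ranges, Ccl17 (3.37 ± 2.85), Adamdec1 (2.19 ± 0.686), Il13ra2 (1.96 ± 0.897), Chil4 (1.83 ± 1.75), Il4ra (1.51 ± 0.248) and Il4 (1.43 ± 0.241). Ccl24 (0.487 ± 0.169) and Chil3 (0.139 ± 0.0853) were the lowest. In female S64F/+ islets Retnla also led (3.92 ± 2.56, n = 5), but Il4ra came next (1.02 ± 0.16), and Il13ra2 stood ninth at 0.0381 ± 0.0206. In female WT and male WT islets Il4ra was the highest of the 10, at 0.882 ± 0.139 and 0.695 ± 0.159 FPKM. The lengths behind these values differ from the annotated exonic bases for some genes, 2266 against 1227 bases for Il4 and 11492 against 6002 for Il4ra, so the order of these genes depends on the lengths used.

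**Figure D3:**
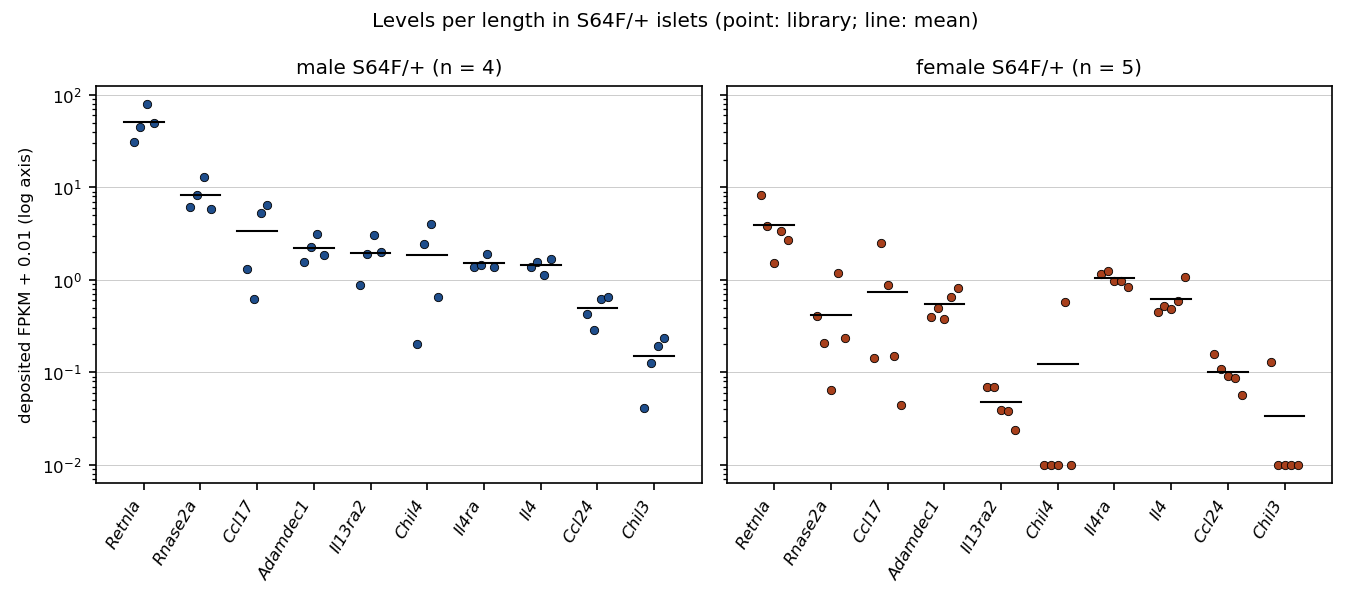
Deposited FPKM plus 0.01 on a log axis for the 10 genes in male (left, n = 4) and female (right, n = 5) S64F/+ libraries, in the order of the male means, with points for libraries and lines for means. Retnla stands alone at the top in males (31.2 to 79.6 FPKM), and the genes from Ccl17 to Il4 overlap.

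Markers of immune cells that islets can hold are given beside the 10 genes. For the counts of listed genes from here on, 15.3% of all genes tested were higher and 12.3% lower in males. In females these shares were 10.2% and 11.0%. Macrophage markers rose in both sexes, 10 of 16 in males and 8 of 16 in females. In males 1 fell, the complement gene C1qa (68.6 ± 17.6 to 37.7 ± 4.88 CPM, a log2 change of -0.86 ± 0.15, edgeR adjusted p 0.000383). Its relatives C1qb and C1qc went the other way in males (1.24 ± 0.15 and 1.45 ± 0.18, edgeR adjusted p 9.06e-06 and 1.5e-05). Cd68, a lysosomal protein of macrophages, rose from 3.02 ± 0.315 to 9.44 ± 0.972 CPM in males (edgeR adjusted p 3.52e-07) and from 3.61 ± 0.21 to 7.08 ± 1.22 CPM in females (edgeR adjusted p 2.5e-05). Fcgr3, C1qb, C1qc and Adgre1, which encodes the surface marker F4/80, rose in both sexes as well. The summed level of the 16 markers ran from 115 to 154 CPM in male WT and from 169.6 to 224 CPM in male S64F/+ libraries, which do not overlap. In females it ran from 105 to 151 CPM in WT and from 131 to 234 CPM in S64F/+ libraries, which overlap. The part of these macrophage markers in the levels of the 10 genes was not tested.

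The defining markers of the other type 2 cells were low, and most had too few counts for the test. Of 8 eosinophil markers none reached the counts needed for a test. Ear1 and Ear6 had 0 counts in all 4 groups, the granule genes Prg2, Prg3 and Epx had 0 to 3 counts per group. Il5ra, the interleukin-5 receptor chain, had no count in male WT and 15 counts over the 4 male S64F/+ libraries, each with at least 1, and Siglecf, a surface lectin of eosinophils, 8 and 37 counts. The chemokine receptor gene Ccr3 had more than 3 counts in male S64F/+ islets and 1 to 3 in each of the other groups. The summed level of all 8 was at most 0.527 CPM in male S64F/+ libraries and 0.199 CPM in male WT libraries. Of 12 mast cell and basophil markers, the basophil protease gene Mcpt8 had 1 count and the receptor gene Fcer1a had none in all libraries. The mast cell protease genes Mcpt4, Tpsb2 and Cma1 had no count in male WT and 10, 8 and 20 counts in male S64F/+ islets, each from 2 of the 4 libraries. In female WT islets Mcpt4 and Tpsb2 had no count and Cma1 had 1 to 3, and each had more than 3 counts in female S64F/+ islets. Cpa3, another mast cell protease gene, had more than 3 counts in each of the 4 groups but too few for the test. Their part in the levels of the 10 genes was not tested. Kit and Gata2, which endothelial or endocrine cells can also express, rose in males by 0.73 ± 0.21 and 0.72 ± 0.24 (edgeR adjusted p 0.0161 and 0.032). The calls of Kit and Gata2 were lost in 2 and 5 of 18 fits that left out 1 library (at most 0.0581 without male WT 1 and 0.113 without male WT 4) and without the libraries with intestinal transcripts. The T cell receptor genes Cd3d, Cd3e and Cd3g had group means of 0.0238 to 0.168 CPM, in male S64F/+ islets 0.0402, 0.0756 and 0.168. Of 9 tested markers of T cells and group 2 innate lymphoid cells, 2 rose in males and 2 rose and 2 fell in females. Over all genes tested 15.3% were higher in males, and 10.2% higher and 11.0% lower in females, so counts this small are not read as a result. Cd4 rose in both sexes, by 1.5 ± 0.42 in males and 1.45 ± 0.36 in females (edgeR adjusted p 0.0122 and 0.00783), to 0.554 ± 0.133 and 0.596 ± 0.11 CPM. Cd4 is also carried by some macrophages and dendritic cells. Thy1, a surface protein of T cells and of fibroblasts, rose in males (2.05 ± 0.61, edgeR adjusted p 0.0212), a call lost in 2 of 18 fits that left out 1 library, at most to 0.0616 without male WT 1. In females the T cell kinase gene Lck rose by 0.99 ± 0.21 (edgeR adjusted p 0.00267), and the T cell receptor chain gene Cd247 fell by 1.71 ± 0.38 (edgeR adjusted p 0.00345). Il2ra, the interleukin-2 receptor chain, fell there by 1.09 ± 0.34 (edgeR adjusted p 0.0282), a call lost in 4 of those 18 fits, at most to 0.0717 without female S64F/+ 4, and with female libraries alone (0.0656).

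Dendritic cell markers rose in males, 7 of 9, among them Batf3 (0.1 ± 0.0396 to 0.882 ± 0.213 CPM, edgeR adjusted p 0.000273) and Flt3 (0.158 ± 0.037 to 1.33 ± 0.395 CPM, edgeR adjusted p 0.0022), a transcription factor and a growth factor receptor of dendritic cells. In females 2 of 9 rose, against 10.2% of all genes tested. They were the antigen presentation genes H2-Ab1 and Cd74 (log2 fold changes of 1.02 ± 0.16 each, edgeR adjusted p 0.000195 and 0.000232). The summed level of the 9 ran from 74.4 to 131 CPM in male WT and from 259 to 309.8 CPM in male S64F/+ libraries. Batf3 and Flt3 made up little of this sum. It includes the antigen presentation genes H2-Ab1 and Cd74, which are not particular to dendritic cells, so it is no measure of these cells alone. Of 4 tested B cell markers edgeR called 0 higher in either sex (0 at an unadjusted p under 0.05, and 0 by DESeq2). Cd79a fell in both sexes, from 4.46 ± 1.77 to 1.32 ± 0.364 CPM in males (edgeR adjusted p 0.000222) and from 6.77 ± 1.88 to 2.77 ± 0.53 CPM in females (edgeR adjusted p 0.00146).

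A wider list of 30 genes of alternatively activated macrophages, none of them among the 10, gave 22 higher and 2 lower of 29 tested in males and 13 higher and 3 lower in females. The list was written with earlier results of these libraries known, so its direction is not independent evidence. Its median log2 fold change was 2.69 in males and 0.99 in females, against -0.03 and 0.02 over all genes tested. Mgl2, a macrophage galactose lectin, rose from 0.203 ± 0.138 to 14.5 ± 2.85 CPM in males (6.04 ± 0.43, edgeR adjusted p 3.46e-08) and from 0.345 ± 0.163 to 5.62 ± 1.38 CPM in females (4.1 ± 0.35, edgeR adjusted p 2.81e-07). Itgax, the integrin CD11c, rose from 3.08 ± 0.521 to 18.2 ± 3.7 CPM in males and from 3.65 ± 0.863 to 7.33 ± 2.08 CPM in females. Clec7a, the beta-glucan receptor dectin-1, rose from 0.904 ± 0.111 to 10.9 ± 2.98 and from 0.799 ± 0.33 to 2.94 ± 0.823 CPM.

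Named after their values were seen, Arg1 and Mrc1 are the genes most often used to define this state. Arg1, arginase 1, was well expressed in WT islets and rose from 38.3 ± 8.95 to 53.1 ± 1.36 CPM in males (0.47 ± 0.15, edgeR adjusted p 0.0249). That call was lost in 5 of 18 fits that left out 1 library, at most to 0.0789 without male WT 2, and stood at 0.112 without the libraries with intestinal transcripts. In females Arg1 rose from 34.3 ± 6.15 to 58.8 ± 7.04 CPM (0.77 ± 0.13, edgeR adjusted p 0.000458). Mrc1, the mannose receptor, rose in males, from 1.27 ± 0.271 to 8.9 ± 1.98 CPM (2.79 ± 0.52, edgeR adjusted p 0.000684), and stood at 1.27 ± 1.26 and 2.87 ± 1.17 CPM in female WT and S64F/+ islets (adjusted p 0.0567). Against the direction of the list, Lyve1, a hyaluronan receptor of lymphatic vessels and of resident macrophages, fell by 1.56 ± 0.23 in males and 1.61 ± 0.21 in females on the log2 scale (edgeR adjusted p 7.83e-05 and 2.21e-05). Pparg, a lipid-sensing nuclear receptor, fell by 0.71 ± 0.16 and 1.12 ± 0.14 (edgeR adjusted p 0.00241 and 2.11e-05).

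By the interaction test the genotype effect was larger in males for 5 of the 29 tested genes of this list, against 2.87% of all genes. Among them were Stab1 (1.47 ± 0.26, edgeR adjusted p 0.00872) and Ch25h (1.77 ± 0.45, adjusted p 0.0369), whose calls were not followed over the other fits. The effect was also larger for Itgax (1.54 ± 0.31, edgeR adjusted p 0.0144), Mgl2 and Clec7a (adjusted p 0.0458 and 0.0445). The calls of Mgl2 and Clec7a were lost in 13 and 14 of 18 fits that left out 1 library (at most 0.0907 without male S64F/+ 1 and 0.0939 without male WT 4), with the replicate block (0.0782 and 0.0734) and without the libraries with intestinal transcripts (0.063 and 0.0955).

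Classical activation is the macrophage state that interferon gamma and bacterial products bring about. Of its genes, 5 of 12 tested rose in males (Nos2, Irf5, Cd86, Ptgs2 and Il6) and 1 in females, Il1b, a count that ran from 1 to 3 over the fits that left out 1 library. Among all genes tested 15.3% were higher in males and 10.2% in females, so the female count (8.33%) is no more than that share. Nos2, inducible nitric oxide synthase, rose from 0.372 ± 0.226 to 2.49 ± 0.96 CPM in males (2.69 ± 0.43, edgeR adjusted p 0.000144) and stood at 0.983 ± 0.298 and 0.991 ± 0.149 CPM in female WT and S64F/+ islets. The interaction of Nos2 passed (2.69 ± 0.55, adjusted p 0.015). Il1b, a cytokine of inflammation, rose from 2.13 ± 0.565 to 4.66 ± 0.968 CPM in females (edgeR adjusted p 0.00154) and stood at 2.91 ± 0.265 and 2.82 ± 1.0 CPM in males. The median of this list was 0.84 in males and 0.46 in females, and whether the lists differ was not tested.

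**Figure D4:**
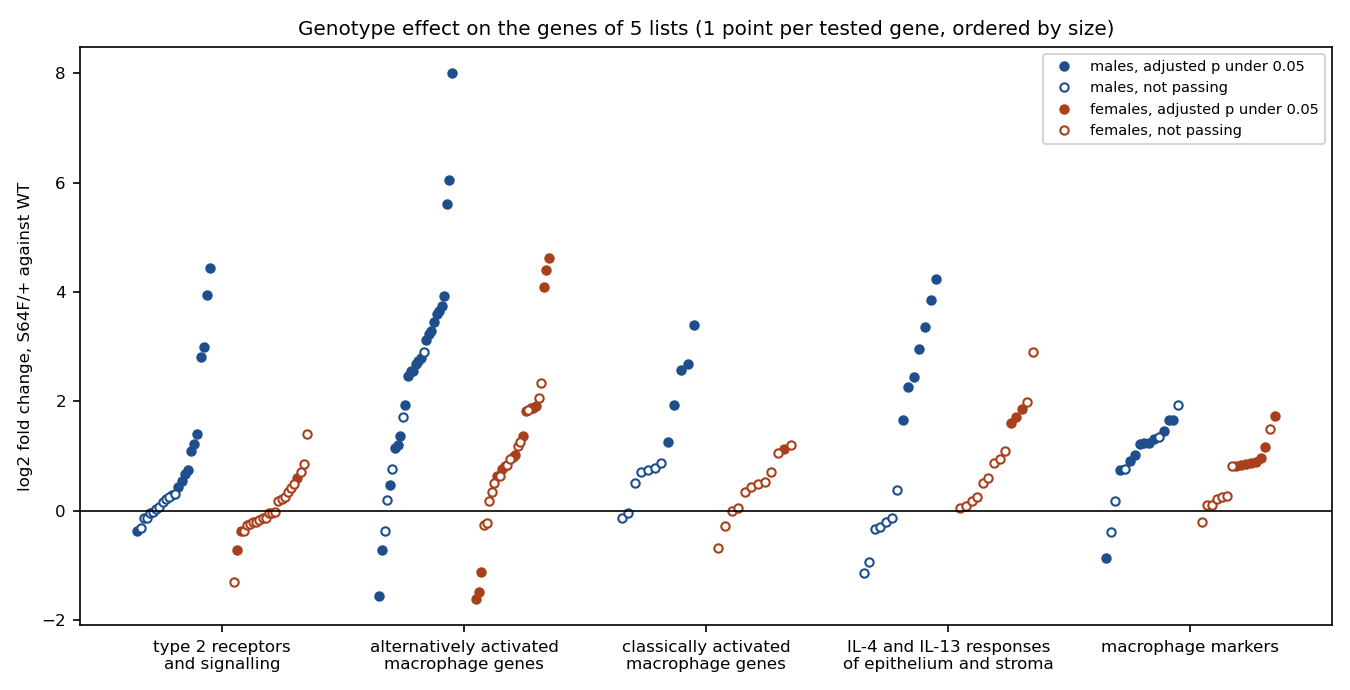
Log2 fold changes of S64F/+ against WT for the tested genes of 5 lists, ordered by size within each list and sex, with filled points for an edgeR adjusted p under 0.05 and open points otherwise. The alternatively activated genes reach 8.0 in males (Ear2), and 22 of 29 are filled above 0, against 5 of 12 of the classically activated genes.

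Genes with which epithelium and stroma answer interleukin-4 and interleukin-13 rose in 7 of 14 cases in males and in 3 of 14 in females. The female count was 5 with same-numbered libraries of each sex as a block. Of all genes tested, 15.3% were higher in males and 10.2% in females. Ccl11, eotaxin-1, rose from 0.597 ± 0.146 to 11.5 ± 2.3 CPM in males (4.24 ± 0.58, edgeR adjusted p 5.02e-05). In females it stood at 0.626 ± 0.293 and 1.92 ± 1.63 CPM (1.6 ± 0.48, edgeR adjusted p 0.0258), a call lost in 4 of 18 fits that left out 1 library, at most to 0.103 without female S64F/+ 3. Postn, the matrix protein periostin, rose from 10.8 ± 4.61 to 159.5 ± 47.4 CPM in males (3.86 ± 0.59, edgeR adjusted p 0.000238). Vcam1, an adhesion molecule for leukocytes, rose from 1.44 ± 0.767 to 11.3 ± 2.06 CPM (2.95 ± 0.50, edgeR adjusted p 0.000357). Ccl2, a monocyte attractant, and Timp1, an inhibitor of matrix proteases, rose in both sexes. The genes of secretory epithelium on this list, Clca1, Fcgbp, Tff3, Tff2, Agr2, Spdef and Foxa3, passed in neither sex. Of these, Clca1, Fcgbp and Tff3 are also among the intestinal transcripts named above. Stromal and endothelial markers were higher in the same male libraries, Col1a1 at 438 ± 85.6 against 64.7 ± 28.1 CPM and Pecam1 at 169 ± 18.1 against 57.5 ± 9.62 CPM, and their part in these results was not tested.

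Among 9 tested relatives and neighbours of the 10 genes, 4 rose in males (2 to 4 over the fits that left out 1 library) and 2 in females (1 to 2), with Ear2, Ccl22 and Ccl11 also counted in the lists above. The shares of all genes tested that were higher were 15.3% in males and 10.2% in females. Ear2, like Rnase2a an eosinophil-associated ribonuclease, rose from 0.024 ± 0.0481 to 9.19 ± 1.36 CPM in males (8.0 ± 0.91, edgeR adjusted p 7.99e-06). In females it rose from 0.0892 ± 0.126 to 1.72 ± 1.16 CPM (4.4 ± 0.68, edgeR adjusted p 0.000206). Ear1 and Ear6 had no count. Ccl22, the second ligand of CCR4 and a neighbour of Ccl17, rose from 0.127 ± 0.194 to 1.93 ± 1.81 CPM in males (3.66 ± 1.15, edgeR adjusted p 0.0252). The Ccl22 call was lost in 5 of 18 fits that left out 1 library, at most to 0.0719 without male S64F/+ 3, and with the replicate block (0.0649). Il13ra1, the signalling chain for interleukin-13, was expressed in WT islets and stood at 20.7 ± 1.54 CPM in male WT and 25.3 ± 2.9 CPM in male S64F/+ islets (0.29 ± 0.10, edgeR adjusted p 0.0453). The Il13ra1 call was lost in 12 of 18 such fits, at most to 0.165 without male S64F/+ 3, with the replicate block (0.0756) and without the libraries with intestinal transcripts (0.126).

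The genes whose levels followed the mean of the 10 most closely over the 18 libraries, of 13784 compared by Pearson correlation of log2 CPM, were P3h2 (0.975), Egln3 (0.975), Ch25h (0.971), Itgax (0.969), Col6a5 (0.966) and Serpina3g (0.964). P3h2 encodes a collagen prolyl hydroxylase, Egln3 an oxygen-sensing prolyl hydroxylase, and Ch25h a cholesterol hydroxylase. Col6a5, a collagen VI chain, stood at 0.986 ± 0.376 CPM in male WT, 96.4 ± 53.5 in male S64F/+, 0.98 ± 0.48 in female WT and 3.79 ± 1.73 in female S64F/+ islets. All points share the 4 groups, so these values mostly restate the group means. On deviations from the group means the leading genes were others, Gpd1 (0.818), Slc6a19 (0.788), Sult6b2 (0.784), Pigr (0.778), Fbp2 (0.777) and Cdhr2 (0.769). Of these, Pigr, Slc6a19 and Cdhr2 are known from the intestinal or renal epithelium. Pigr had group SDs of 60.6 and 148 CPM in male WT and male S64F/+ islets, the groups that hold the libraries with the most intestinal transcripts, against 1.81 and 3.07 CPM in the female groups.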

How the data were processed

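RNA-seq was made from whole islets of 4 groups, with groups and replicate numbers taken from the sample titles. Each deposited table gives raw counts per gene and library. Per the submitters' processing notes the build was GRCm38 and the tools included STAR and featureCounts, with no version or role, beside FastQC, MultiQC and DESeq2. FPKM values, deposited by the authors beside them, equalled count over total and length (within 1%) for the 33562 genes that had a count. Annotation, strand setting and the treatment of multimapping reads are not stated in any source used here. Of the features listed, 99 spike-ins without counts were left out.

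The analysis used edgeR 4.0.16 in R 4.3.3: filterByExpr by group (minimum count 10, minimum total 15), TMM scaling, 1 robust quasi-likelihood fit over all 18 libraries, and Benjamini-Hochberg adjustment over the 18364 genes, two-sided, threshold 0.05. The fit was tested on simulated data. CPM use TMM-scaled library sizes. Ratios of the members use pooled counts with exact conditional 95% intervals, or a floor of 3 counts over the group where WT had none. Coordinates and transcripts are from GENCODE M21 on GRCm38, promoters from RefSeq (GRCm38.p6). The lowest chi-square per degree of freedom between replicates was 19.9, so none repeats another. Deviations of same-numbered WT and S64F/+ libraries from their group means correlated at 0.11 to 0.418 in the 5 female pairs and at -0.249 to 0.189 in males. For WT libraries 3 and 4 in females and 1, 2 and 3 in males, an S64F/+ library of another number correlated better. The labels give no pairing, and these values do not establish one. The replicate block, used only as an alternative, joined same-numbered libraries in both sexes.

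The members, gene lists and tests were chosen with earlier results of these data known. Of the macrophage markers first listed, 1 is not reported here and is in no count or sum. List genes were named by a rule: up to 4 with the smallest p in males and up to 2 more in females, all where 5 or fewer passed, Il5, Il13 and Il33 whatever their p, defining markers by level. Arg1, Mrc1, C1qa, Areg, Tslp, Il1rl1, Il17rb, Stab1, Ch25h, Tff2, Agr2, Spdef and Foxa3 were chosen after their values were seen. Alternatives were other scalings, no filter, no robust estimation, DESeq2 1.42.0, the replicate block, 1 sex only, each library left out and, chosen after seeing the data, the libraries with intestinal transcripts (Clca1 above 5 CPM) left out.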

Additional observations from a re-analysis of the deposited data

Results flagged for a closer look

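In 8 of 34 sets of 1 gene and 1 group, a single library stood apart from the rest of its group by Dixon's ratio; chance alone flags about 1 set in 20, and in sparse counts a lone library with any count is enough. In WT islets these were Il4 in female WT 4 (0.166 CPM), Il4ra in male WT 2 (10.4 CPM), Il13ra2 in female WT 2 (0.0295 CPM), Chil3 in male WT 3 (0.133 CPM) and Adamdec1 in male WT 2 (1.71 CPM). In female S64F/+ islets they were Rnase2a and Chil4, both in library 4 (0.865 and 1.73 CPM), and Chil3 in library 1 (0.237 CPM). Male WT 2 and female S64F/+ 1 also hold intestinal transcripts, and their part in these values was not tested.

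Named genes were taken mostly by the smallest p in males, so the count here is not read as a result. Over all genes tested, 4.47% differed between the sexes in their genotype effect. The 57 named genes counted here leave out Stab1 and Ch25h. The genotype effect differed between the sexes for 12 of 57 named genes that are not among the 10 (male minus female log2 fold change, edgeR adjusted p). They were Csf2rb2 (3.74, 0.000634), Csf2rb (3.09, 0.00811), Jak3 (1.0, 0.00942), Itgax (1.54, 0.0144), Nos2 (2.69, 0.015), Stat6 (0.46, 0.0308), Clec7a (1.68, 0.0445), Mgl2 (1.94, 0.0458), Batf3 (2.5, 0.047), Postn (2.77, 0.047), Ccl11 (2.64, 0.0478) and Cd68 (0.67, 0.0494). The first 5 kept their call in each of the 18 fits that left out 1 library. The other 7 lost it in 9 to 16 of them, Cd68 most often (at most to an adjusted p of 0.114 without male WT 4).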

How the results depend on the processing

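Leaving out 1 library gave 3956 to 5545 called genes in males, 2935 to 4988 in females and 253 to 2152 for the difference between the sexes; the last was 821 with all libraries, and 15 of the 18 libraries moved it by over 1.5 times (253 without male WT 4, 1945 without female WT 4, 2152 without female S64F/+ 1). It was 481 without the filter, 1922 with DESeq2 and 1500 without the libraries with intestinal transcripts. Female calls numbered 2587 with female libraries alone (3884 with all). Alternatively activated genes higher in females numbered 8 with female libraries alone and 9 to 15 with 1 library left out, and in males 20 to 24. With the replicate block 5101, 3865 and 920 genes were called, and it removed 8 calls of named genes and added 1, Irs1 in males (-0.31, adjusted p 0.0244). Library-size scaling moved the median of all genes to 0.19 in males and 0.25 for the difference, and the share of called genes that were higher from 55.6% to 86.4% and from 64.2% to 97.2%; among named genes it turned Il1b and Uqcrq in males, neither called (0.17 and 0.14). Il1b in males ran from -0.3 without male S64F/+ 4 to 0.08 without male S64F/+ 1 and 0.07 without male S64F/+ 2. Of 50 named calls in males 39 held with each library left out, of 31 in females 26, and of 12 differences 5. Counts under about 10 per group, as for Il13ra2 and Ccl24 in female WT islets, leave ratios with wide intervals.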

Other observations

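Of the receptors for alarmins, Il1rl1 and Il17rb were chosen after their values were seen. Il1rl1, the receptor for interleukin-33, rose in males from 0.108 ± 0.169 to 0.924 ± 0.191 CPM (SD, n = 4 each; edgeR adjusted p 0.00409), and Il17rb, the receptor for interleukin-25, from 0.0856 ± 0.0989 to 0.715 ± 0.24 CPM (edgeR adjusted p 0.00374). In females they stood at 0.125 ± 0.0325 and 0.349 ± 0.217 CPM for Il1rl1 and at 0.157 ± 0.168 and 0.17 ± 0.0875 CPM for Il17rb, neither past the threshold, and the difference between the sexes did not pass either (adjusted p 0.349 and 0.0867). Gata3, the transcription factor of type 2 lymphocytes, had 6 counts in male WT and 30 in male S64F/+ islets, too few for the test. Rora, another factor of these cells, did not pass in males (-0.12 ± 0.13, edgeR adjusted p 0.517).

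Of 9 neutrophil markers 3 had enough counts for the test, and Cxcr2, a chemokine receptor, rose in males from 0.0276 ± 0.0553 to 0.411 ± 0.235 CPM (edgeR adjusted p 0.00578). Csf3r, the G-CSF receptor, rose there from 0.263 ± 0.113 to 0.6 ± 0.153 CPM (edgeR adjusted p 0.0295), a call lost in 4 of 18 fits that left out 1 library (at most to 0.101 without male WT 4), without the filter (0.063) and without the libraries with intestinal transcripts (0.101). Ly6g, the defining marker, had no count in either male group.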
